A study of Homo sapiens with 2 samples.

Results

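The BCL2 family members described here were 10 genes that decide whether a cell commits to mitochondrial apoptosis: BCL2, BCL2L1, BCL2L2, MCL1, BAX, BAK1, BCL2L11, BBC3, PMAIP1 and BID. They were found through the RefSeq accession that the array gives for each of its elements (an element is a probe, printed as 1 or more spots). They had 15 elements with 13 accessions, of 42405 elements in all. RNA came from RWPE-1 cells, an immortalised noncancerous line of human prostate epithelium kept in serum-free keratinocyte medium with supplements. The cells had received 30 nM of either pre-miR-424, a synthetic precursor of the microRNA miR-424, or the precursor called Negative control #1. Both RNAs were hybridised together on 2 two-colour Agilent arrays, with pre-miR-424 RNA in Cy5 under normal labelling and in Cy3 on the dye swap. The design calls the arrays technical replicates, so they were 1 replicate of the comparison, and values are given for each array with no p-value. The time between transfection and RNA extraction is not given in the sources used here.

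The family works through binding among its own proteins. The guardians (BCL2, BCL-xL, BCL-w and MCL1) hold the effectors BAX and BAK in check at the mitochondrial outer membrane, and the BH3-only proteins (BIM, PUMA, NOXA and BID among them) bind guardians or activate effectors. Free effectors assemble into pores through which cytochrome c leaves, and the apoptosome then activates caspases. In epithelia such as the prostate's, this balance sets how readily cells die on loss of attachment, growth factors or androgen.

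A microRNA recognises transcripts mainly through its seed, bases 2 to 8. The mature sequences below, from RefSeq (GRCh38.p14), show which microRNAs carry the seed of miR-424-5p, among them miR-15a and miR-16, for which BCL2 is a reported target. The seed is in capitals, and a transcript that pairs with it in full holds UGCUGCU. The 5p arm of miR-424 lies at chrX:134546680-134546701 on the minus strand, and the 3p arm at chrX:134546644-134546664.
hsa-miR-424-5p: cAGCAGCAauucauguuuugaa
hsa-miR-16-5p: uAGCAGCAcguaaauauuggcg
hsa-miR-15a-5p: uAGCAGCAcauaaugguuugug
hsa-miR-195-5p: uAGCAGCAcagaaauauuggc
hsa-miR-497-5p: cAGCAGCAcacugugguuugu
hsa-miR-424-3p: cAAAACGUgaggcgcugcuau
The 3p arm of miR-424 is shown because the same precursor holds it, and its seed differs. In all, 7 of 2370 mature names shared the seed AGCAGCA. Sites in the members' own transcripts were not analysed here.

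Measured elements were those that exceeded background clearly for both RNAs, on each array, and that had no outlier spot. This held for 25664 elements, some of them without a gene name, and the named ones covered 13812 genes. No element was saturated. Across the measured elements Pearson's r between the arrays was 0.157, which describes elements and not replicates. The error of the ratio on a single array was 0.24 on the log2 scale. At 1.5-fold on both arrays, 119 elements followed Cy5 and 22 followed Cy3 whatever the RNA. With so few arrays the precision of all values below is limited, and agreement between them covers labelling and hybridisation only. All 7 epithelial markers examined (KRT5, KRT14, KRT8, KRT18, TP63, CDH1 and EPCAM) were well above background. So were 3 of 6 stromal markers (COL1A1, COL3A1 and DCN), 2 of 4 leukocyte markers (PTPRC and CD14) and CDH5 of 3 endothelial markers. KLK3 and ACP3, markers of secretory prostate epithelium, were not. In RNA of a whole culture, fewer cells with a transcript and less transcript per cell cannot be told apart.

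With pre-miR-424, the BH3-only gene BBC3 (PUMA) was 1.41-fold of control and the guardian BCL2L2 (BCL-w) 75.7% of control in the mean of the arrays, and both lay on the same side of control on each array. BCL2L1 (BCL-xL) was at 84.0% of control, while BCL2, BAK1 and BID lay on both sides of it. PMAIP1 (NOXA) was 1.42-fold of control in the mean, with arrays that disagreed in size. Of the 15 elements of the members, 14 were measured, and each member had at least 1 of them. With pre-miR-424, 6 elements were higher on both arrays (over all measured elements, 25.0%), 2 were lower on both (26.4%) and 6 had opposite signs. No member element reached 1.5-fold on both arrays in either direction, where 0.421% of all measured elements were higher and 0.429% lower. At 1.2-fold, a threshold passed by 3.14% of measured elements upwards and 3.28% downwards, the element of BBC3 was higher and that of BCL2L2 was lower. Taken by gene, each through its brightest measured element, 5 members were higher on both arrays, 2 were lower and 3 had opposite signs, against 26.8% of all genes higher and 26.7% lower. No member passed 1.5-fold (0.623% of genes higher, 0.391% lower), and 1 passed 1.2-fold in each direction (3.57% and 3.5%). When the loess fit was replaced by subtraction of each array's median (median centring), the 10 genes divided into 2 higher (BBC3 and PMAIP1), 1 lower (BCL2L2) and 7 of opposite sign, so those 3 had equal signs on both arrays under either step. Median centring left all measured elements at a median of 0.10 under normal labelling and -0.18 on the swap, which favours opposite signs in general. The share of all genes was not computed for it, so counts after median centring, here and below, have no background. The median log2 ratio of the 10 members was 0.14, and that of all genes was -0.0042.

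**Figure D1:**
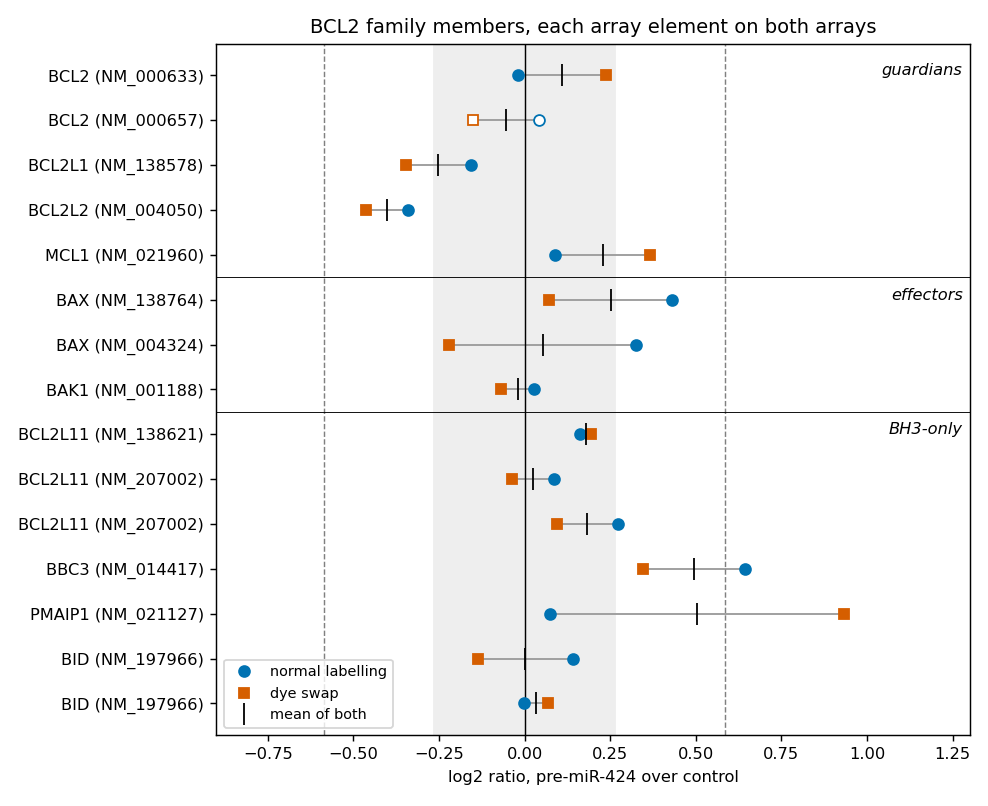
Log2 ratio of pre-miR-424 over control (x axis) for each of the 15 array elements of the members (rows), with the RefSeq accession each carries. Circles are the array with normal labelling, squares the dye swap and bars their mean; open symbols mark the BCL2 element that was not measured, grey shading the range within 1.2-fold and dashed lines 1.5-fold. BBC3 lies right and BCL2L2 left of the shading on both arrays, and PMAIP1 lies at 0.074 on one array and 0.93 on the other.

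Among the guardians, the transcripts of BCL2L1 and BCL2L2 were less abundant with pre-miR-424 on both arrays, MCL1 was more abundant on both, and BCL2 had no common sign. BCL2L2 encodes BCL-w, a guardian best known from the testis. Its normalised intensity was 3824 with pre-miR-424 and 4839.9 with control under normal labelling, and 3489 and 4806 on the dye swap. Both arrays thus placed the treated RNA below the control, at log2 ratios of -0.34 and -0.46 (mean -0.40 ± 0.086, SD, n = 2 arrays), or 75.7% of control. After median centring the ratios were -0.17 and -0.75, so that the smaller one no longer passed 1.2-fold. BCL2L1 encodes BCL-xL, and its element was printed as 10 spots. The intensities were 4984 against 5556 under normal labelling and 4486 against 5707 on the swap, and the log2 ratios were -0.16 and -0.35 (mean -0.25 ± 0.13), or 84.0% of control. All 10 spots lay below 0 on each array, from -0.27 to -0.058 and from -0.43 to -0.27. After median centring the ratios of the element were 0.026 and -0.65, so they no longer shared a sign. That element carried the accession NM_138578, that of the long form BCL-xL, but which forms of the transcript it reads was not tested.

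MCL1, the short-lived guardian whose protein turns over quickly, had ratios on the other side of 0. Its intensity was 36513 with pre-miR-424 and 34320.5 with control under normal labelling, and 43466 and 33711 on the swap. The log2 ratios were 0.089 and 0.37 (mean 0.23 ± 0.20), 117% of control. BCL2 itself, the founding member, was close to background in these cells. Its measured element (NM_000633, 10 spots) had a raw median signal of 92.1 to 141 over local backgrounds of 27.8 to 71.7. Its normalised intensity was 114 against 115 with control under normal labelling and 129 against 109 on the swap. The log2 ratios of -0.021 and 0.24 (mean 0.11 ± 0.18) did not share a sign. Of its 10 spots, 6 were above 0 under normal labelling and 10 after the dye swap, with ranges of -0.21 to 0.17 and 0.11 to 0.40. Another BCL2 element, for the accession NM_000657, was well above background in 50% of its spots in the channel of pre-miR-424 on the swap and was therefore not measured; its ratios were 0.043 and -0.15. The mean of the measured element was 0.15 with an offset of 16 in the background step and 0.29 with the ratios of the scanner software.

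**Figure D2:**
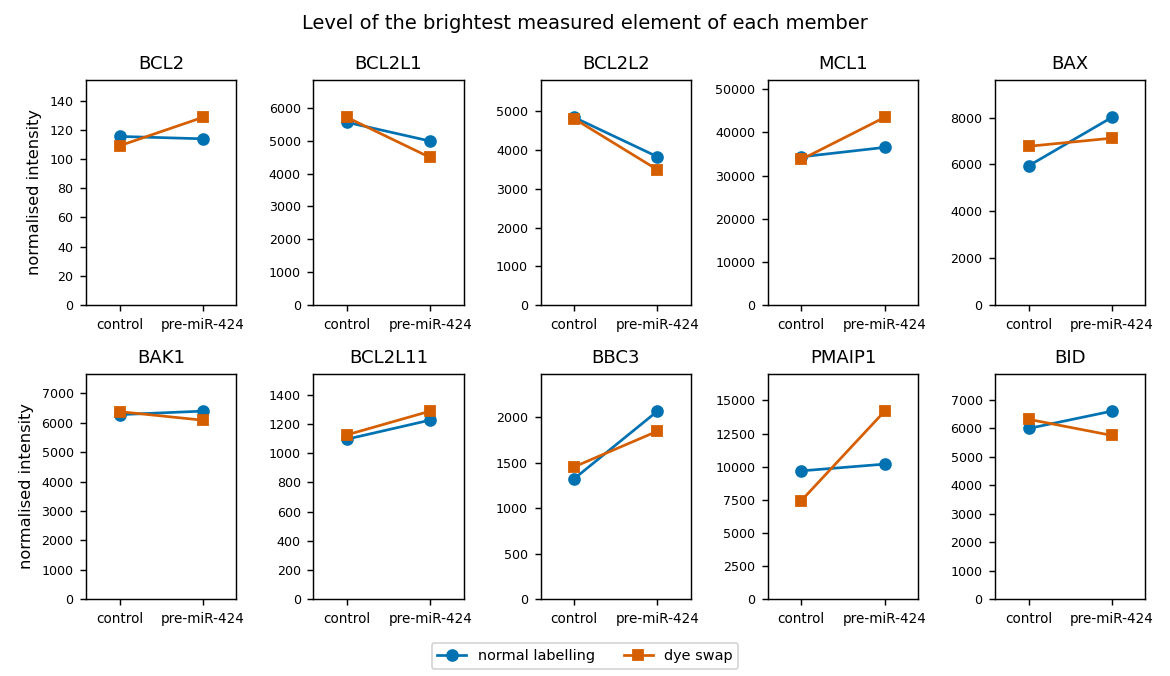
Normalised intensity (y axis, from 0, with a scale of its own in each panel) of the brightest measured element of each member in control and pre-miR-424 RNA, with circles for normal labelling and squares for the dye swap; each line joins the values of 1 array. Both lines descend for BCL2L1 and BCL2L2 and ascend for MCL1, BAX, BCL2L11, BBC3 and PMAIP1, and they cross in opposite directions for BCL2, BAK1 and BID.

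Neither effector passed 1.2-fold on both arrays. BAX forms the pore after moving from the cytosol to mitochondria, and its brightest element (NM_138764, 10 spots) read 8010.1 against 5941 with control under normal labelling and 7122 against 6775 on the swap. All 10 spots were above 0 on both arrays, from 0.39 to 0.50 and from 0.020 to 0.17, and yet the spots of the arrays did not overlap. The log2 ratios of the element were 0.43 and 0.072 (mean 0.25 ± 0.25). A dimmer BAX element (NM_004324) gave 0.33 and -0.22 (mean 0.053 ± 0.39), so the elements of BAX agreed on the array with normal labelling and disagreed in sign on the swap. BAK1, the effector that resides in the mitochondrial membrane, read 6399 against 6279 under normal labelling and 6090.0 against 6381 on the swap. Its log2 ratios of 0.027 and -0.067 (mean -0.020 ± 0.067) lay on both sides of 0.

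Of the BH3-only genes, BBC3, PMAIP1 and BCL2L11 had positive ratios on both arrays, and BID had opposite signs. BBC3 encodes PUMA, a p53 target that binds every guardian named here. Its intensity was 2070.0 with pre-miR-424 and 1324 with control under normal labelling, and 1849 and 1456 on the swap. It was higher on both arrays by 1.56-fold and 1.27-fold, a mean log2 ratio of 0.50 ± 0.21 and thus 1.41-fold. Its spots agreed closely, with 0.64 and 0.65 on one array and 0.34 and 0.35 on the other. After median centring the ratios were 0.78 and 0.096, so that the lower one no longer passed 1.2-fold.

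PMAIP1 encodes NOXA, which binds MCL1 and promotes its degradation. Its intensity was 10192 against 9682 with control under normal labelling and 14195 against 7431 on the swap. The mean log2 ratio, 0.50 ± 0.61, was as large as that of BBC3, but it came from the dye swap: the array with normal labelling gave 0.074 and the swap 0.93. Both spots of each array repeated their array's value, at 0.054 and 0.095 and at 0.93 and 0.94. A difference between the arrays of this size, 0.86, was reached by 1.74% of the measured elements, against a median difference of 0.19 over all of them. After median centring PMAIP1 stood at 0.31 and 0.58, and it was then the member past 1.2-fold on both arrays. The component of PMAIP1 that followed the dye, higher in Cy3, was -0.43 as Cy5 over Cy3, against an SD of 0.14 of this component among elements of like brightness; its part in the mean was not tested.

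BCL2L11 encodes BIM, which can bind all guardians and activate the effectors, and 3 elements represented it. The brightest (NM_138621) read 1229 against 1097 with control and 1290.1 against 1127, log2 ratios of 0.16 and 0.20 (mean 0.18 ± 0.022), the closest repeat among the measured elements of the members. The dimmer pair, both with the accession NM_207002, gave 0.085 and -0.036 for the one and 0.27 and 0.094 for the other. After median centring the brightest element read 0.28 and -0.040. BID, which caspase-8 cleaves to link death receptors to mitochondria, had a single-spot element with 6597 against 5987 and 5743 against 6309.5 (log2 ratios 0.14 and -0.14), and one with 2 spots at -0.0012 and 0.068, both with the accession NM_197966. Neither element of BID departed from control beyond the difference between the arrays.

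**Figure D3:**
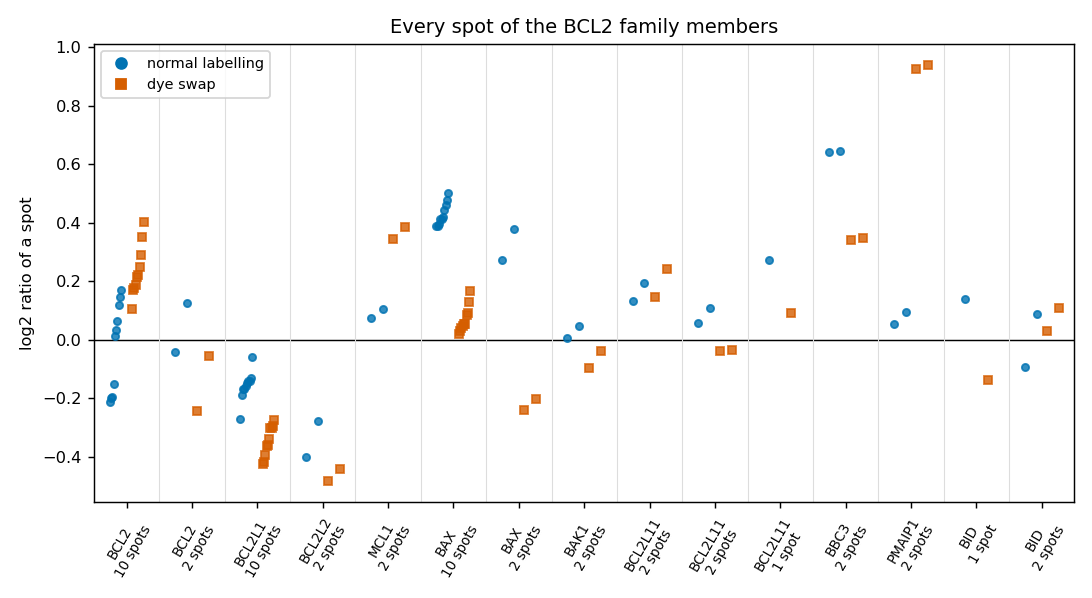
Log2 ratio of every spot (y axis) of the members' elements, named by gene and number of spots along the x axis, with circles for normal labelling and squares for the dye swap. The spots of an element lie close together within an array for PMAIP1, BBC3 and BAX, while the arrays stand apart; all 10 spots of BCL2L1 are below 0 on each array.

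Placed in order of the mean log2 ratio, the members ran from PMAIP1 (0.50) and BBC3 (0.50) through BAX (0.25), MCL1 (0.23), BCL2L11 (0.18), BCL2 (0.11), BID (0.0022) and BAK1 (-0.020) to BCL2L1 (-0.25) and BCL2L2 (-0.40). The ranges between the arrays overlapped in 8 of the 9 pairs of neighbours, so their order is not resolved, and the exception was BAK1 above BCL2L1. The error of a mean was taken as the SD of the difference between arrays divided by 2, among the 1000 measured elements nearest in brightness. BBC3 stood at 3.22 times this error (0.15), PMAIP1 at 3.52 times (0.14) and BCL2L2 at 2.68 times (0.15), while the other 7 members stood at 0.015 to 1.73 times. For PMAIP1 this error is too small a measure, since the SD between its own arrays (0.61) was larger than its mean (0.50). The mean ratios of elements of like brightness spread more widely than the error. Their SD was 0.22 near BBC3, 0.18 near PMAIP1 and 0.21 near BCL2L2, so the multiples above do not measure how unusual a member was. BCL2L2 and BCL2L1 held the lowest and next lowest ratio on both arrays. After median centring BCL2L1 (0.026) stood above BCL2 (-0.077) under normal labelling. Each of the 6 effector and BH3-only genes set against each of the 4 guardians gave 24 differences of log2 ratios. Of these, 14 were above 0 on both arrays, 1 was below 0 on both and 9 had opposite signs; 12 of the 14 involved BCL2L1 or BCL2L2, which follows from their place at the end of the order. BBC3 minus BCL2L2 was 0.98 under normal labelling and 0.81 on the swap, and BBC3 minus BCL2L1 was 0.80 and 0.69. BBC3 minus BCL2 was 0.67 and 0.11, and BBC3 minus MCL1 was 0.56 and -0.021, so only with MCL1 did the sign turn. The median log2 ratio of the 4 BH3-only members was 0.34 in the mean of the arrays. It was 0.15 with the normal array alone and 0.27 with the swap alone, where the value of PMAIP1 differs most. The median of the 4 guardians was -0.072 in the mean, -0.089 with the normal array and -0.055 with the swap. These medians do not describe the classes as a whole. Measured BH3-only genes outside the members had mean log2 ratios of -0.54 (BIK), -0.082 (BAD) and 0.049 (HRK).

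**Figure D4:**
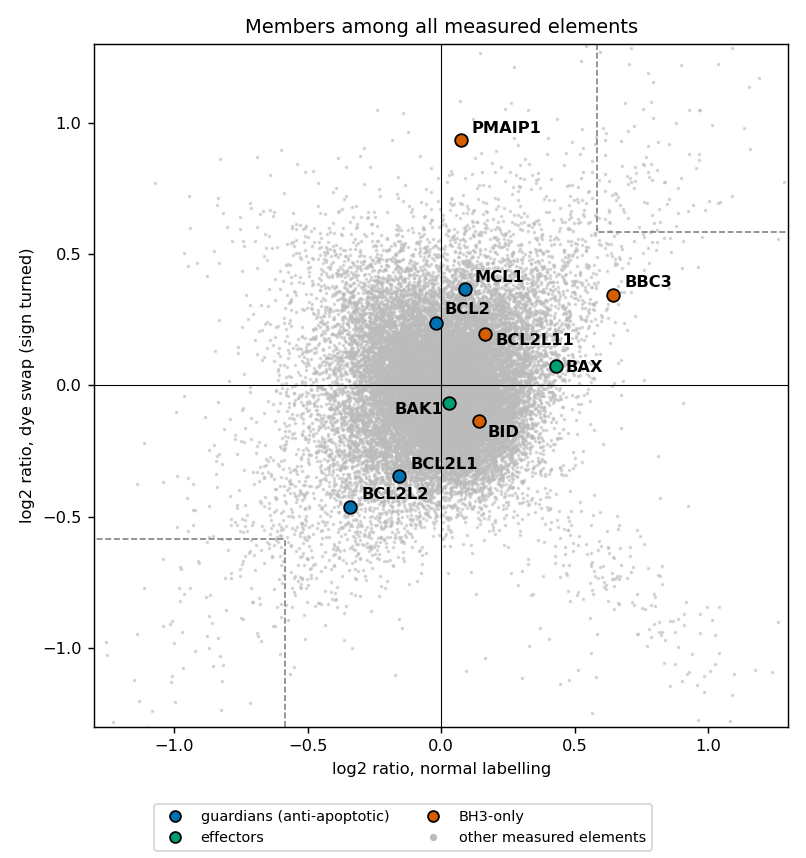
Log2 ratio of pre-miR-424 over control on the array with normal labelling (x axis) against the dye swap with its sign turned (y axis), for the brightest measured element of each member (large points, coloured by role) among all 25664 measured elements (grey points; 57 lie beyond the axes). Dashed corners enclose at least 1.5-fold on both arrays, where no member lies; BCL2L1 and BCL2L2 lie in the lower left and BBC3 nearest to the upper right corner.

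Further genes of the family and of its pathway were taken from lists. For all list counts before median centring, 26.8% of all genes were higher on both arrays and 26.7% were lower. The 1.2-fold threshold was passed by 3.57% of all genes upwards and 3.5% downwards, and 1.5-fold by 0.623% and 0.391%. Of 13 other BCL2 relatives, 10 were measured, with 5 higher on both arrays, 2 lower and 3 of opposite sign (3, 1 and 6 after median centring), and their median log2 ratio was 0.011 (-0.029 after median centring). BIK, a BH3-only protein of the endoplasmic reticulum, was lower by more than 1.2-fold, at -0.43 and -0.64 (mean -0.54 ± 0.14), with the lowest mean ratio in the list. BCL2L12 read -0.19 and -0.48, and another element of it -0.15 and -0.59. The mitophagy receptors BNIP3 (0.18 and 0.29) and BNIP3L (0.14 and 0.33, with 0.30 and 0.34 at another element) had positive ratios on both arrays. The guardian BCL2A1 gave 0.12 and 0.062, while a dimmer element of it gave -0.42 and -0.26, so its elements disagreed in sign. HRK (0.079 and 0.019) and BCL2L15 (0.19 and 0.017) were positive on both arrays. BOK (0.076 and -0.29), the BH3-only gene BAD (0.21 and -0.38) and BCL2L13 (0.11 and -0.17) changed sign between the arrays. BCL2L10, BMF and BCL2L14 were not measured.

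Of the genes that act on MCL1 protein turnover, 6 of 7 were measured, with 1 higher on both arrays, 4 lower and 1 of opposite sign (0, 5 and 1 after median centring), and a median log2 ratio of -0.32. BTRC, the substrate receptor beta-TrCP of an SCF ubiquitin ligase, fell past 1.5-fold on both arrays, at -0.86 and -1.07 (mean -0.96 ± 0.15), and it did so after median centring as well. The ubiquitin ligase HUWE1 read -0.44 and -0.25, and the kinase GSK3B, which phosphorylates MCL1 ahead of its ubiquitination, read -0.32 and -0.33. The receptor FBXW7 read -0.34 and -0.27. The deubiquitinase USP9X, which removes ubiquitin from MCL1, read 0.14 and 0.13. TRIM17 was not measured. At 1.2-fold, 3 genes of this list were lower, against 3.5% of all genes.

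Downstream of the mitochondrion, all 14 genes of the apoptosome, caspases and their inhibitors were measured, and 4 were higher on both arrays, 2 lower and 8 of opposite sign (1, 3 and 10 after median centring), with a median of -0.0070 and none past 1.2-fold. The inhibitor BIRC2 gave 0.0042 and 0.36, while DIABLO, which counters such inhibitors, gave -0.20 and -0.16 and the scaffold APAF1 -0.25 and -0.056. In the death receptor pathway, which reaches the family through BID, 10 of 11 genes were measured, with 5 higher, 2 lower and 3 of opposite sign (2, 3 and 5 after median centring) and a median of 0.12. The TRAIL receptor TNFRSF10B passed 1.2-fold at 0.39 and 0.35, and its ligand TNFSF10 gave 0.23 and 0.57. CASP10 gave -0.43 and -0.53 at its brightest element, but 0.16 and 0.17 at another, so no direction for the gene follows. CASP8, the protease that cleaves BID, gave -0.52 and -0.11.

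At the outer membrane, none of 6 partner genes was higher on both arrays (26.8% of all genes). Of the 6, 5 were lower (26.7% of all genes) and 1 was of opposite sign, with a median of -0.094. After median centring the counts of higher, lower and opposite sign were 1, 2 and 3. MTCH2, the receptor of cleaved BID, gave -0.28 and -0.16, and VDAC2, which holds BAK at mitochondria, gave -0.21 and -0.014. Dimmer measured elements of VDAC1 (-0.31 and 0.19), VDAC2 (-0.33 and 0.28) and OPA1 (-0.34 and 0.13) had opposite signs, so they did not repeat the lower ratios of those genes. Of 12 transcription factors that act on BH3-only genes, 5 were higher, 1 lower and 6 of opposite sign (3, 0 and 9 after median centring), with a median of 0.054. STAT3 (0.54 and 0.67, with 0.34 and 0.31 at another element) and DDIT3, the stress factor CHOP (0.38 and 0.45), passed 1.2-fold, and NFKB1 gave -0.071 and -0.26. Set beside these, 7 of 8 cell cycle genes known as targets of the shared seed were measured. All 7 were lower on both arrays (26.7% of all genes), also after median centring, with a median log2 ratio of -0.52, and 6 passed 1.2-fold (3.5% of all genes). CCNE1, the cyclin of the G1 to S transition, fell to -0.62 and -0.92 and the cyclin CCND2 to -0.59 and -0.67, the genes of the list past 1.5-fold on both arrays; after median centring neither passed it. The smallest differences were those of CHEK1 (-0.32 and -0.27) and WEE1 (-0.23 and -0.063). The cell cycle list was chosen with earlier results of these data known, so its common direction is not independent of them. The members and the cell cycle list were not compared by a test.

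**Figure D5:**
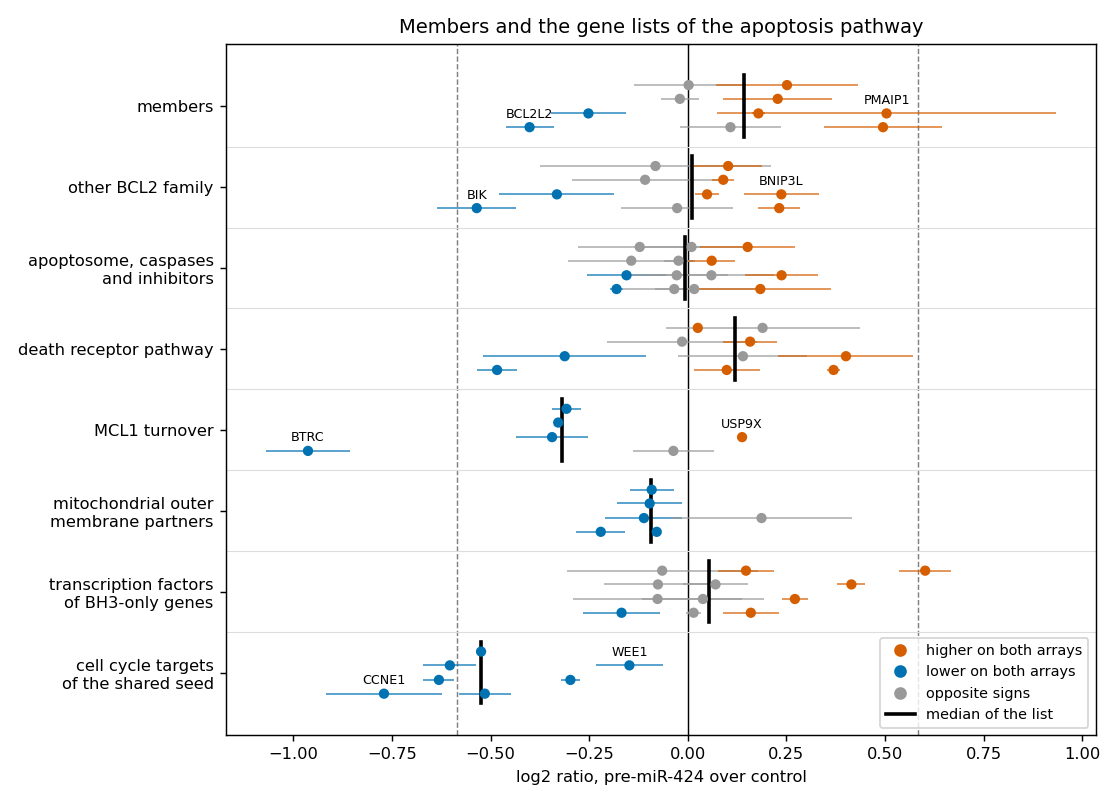
Mean log2 ratio of pre-miR-424 over control (points, x axis) for each measured gene of the members and of 7 gene lists (rows), with a line from the ratio of one array to that of the other; vertical bars are list medians and dashed lines mark 1.5-fold. The cell cycle targets, chosen with earlier results of these data known, all lie below 0 with a median of -0.52. The members extend from -0.40 (BCL2L2) to 0.50 (PMAIP1) around a median of 0.14.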

How the data were processed

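The authors amplified the RNA, coupled it to Cy3 or Cy5 and hybridised it. Their deposited scanner files give, per spot and channel, median intensity and local background on a linear scale, not normalised, and a log10 ratio (Cy5 to Cy3) from the scanner software. A value table deposited by the authors holds log2 ratios whose steps are not stated; compared with the scanner files, it held Cy5 over Cy3 on both arrays, the swap unturned (r = 0.991 and 0.988, medians 0.024 and 0.036). Its values differed from the unturned ratios computed here by a median of 0.00056 under normal labelling and 0.00079 on the swap. The authors' ratios were thus nearly those used here and add little as an alternative. No column belonged to other samples.

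Here limma 3.58.1 (R 4.3.3) corrected the background by normexp with an offset of 50 on all spots, which draws ratios of dim elements towards 0. Control spots were left out, each array was normalised by loess, spots of an element were averaged, and ratios were turned to pre-miR-424 over control. Aquantile scaling was used for the intensities printed and changes no ratio. An element was measured when more than 50% of its spots passed the scanner's background criterion for both RNAs on each array and none was an outlier, and a gene was read from its brightest measured element. A call needed 1.5-fold in one direction on both arrays. Since the arrays were 1 replicate, no test was run. Accessions were matched to RefSeq symbols (assembly GRCh38.p14, names only), which named 25771 of 27134 elements with a RefSeq accession (95.0%); which transcripts an element reads was not tested. Named were all members with every element, all measured genes of the other BCL2 relatives and, in each list, genes past 1.5-fold and the 2 largest differences in each direction among those with equal signs; other genes named were chosen after their values were seen, and a gene that the rule would name and a marker are not reported here. Members and lists were chosen with earlier results of these data known. Counts were made with pandas 2.3.3 and numpy 2.4.6 (Python 3.11.15), figures with matplotlib 3.10.9. Tested on simulated data with 25664 elements, the steps recovered 49 of 100 changes of 0.8 and 100 of 100 changes of 1.5 on the log2 scale, with 0 false calls. The simulated error was smaller than that of a real array (0.24), and no single element was made to follow a dye. These rates are therefore a best case and do not carry over to the data. Alternatives comprised median centring, no background correction or an offset of 16, the software's and the authors' ratios, weaker filters, outlier spots kept, each array alone, means over elements, and thresholds of 1.2-fold and 2-fold.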

Additional observations from a re-analysis of the deposited data

How the results depend on the processing

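The count of member elements past 1.5-fold, 0, was also 0 after median centring, with no background correction or an offset of 16, with the software's or the authors' ratios, weaker filters, outlier spots kept and a threshold of 2-fold. At 1.2-fold it was 2, and on each array alone it was 1, BBC3 under normal labelling and PMAIP1 on the swap. The share of all measured elements past 1.5-fold on a single array was not computed. Counts on the arrays alone, here and for the lists below, therefore have no background. The median log2 ratio of the members, 0.14, was 0.21 with the software's ratios and between 0.082 and 0.13 on the arrays alone. The sign of the mean held under all 11 alternatives for BCL2L1, BCL2L2, MCL1, BAX, BCL2L11, BBC3 and PMAIP1, and it turned for BCL2 and BAK1 with the normal array alone, and for BID with the swap alone or median centring. The weaker filters and outlier spots kept returned the same value for every member, and the authors' ratios nearly repeated it. These alternatives therefore had little or no room to turn a sign. After median centring the means kept their sign, but the arrays had opposite signs for BCL2L1 (0.026 and -0.65), MCL1 (0.53 and -0.18), BAX (0.63 and -0.25) and BCL2L11 (0.28 and -0.040). The count of list genes past 1.5-fold, 3, was 1 after median centring (BTRC), 14 at 1.2-fold and 0 at 2-fold, and between 4 and 5 on the arrays alone; these alternatives for the lists were chosen after seeing the data. Median centring moved the median of all measured elements to 0.10 under normal labelling and -0.18 on the swap, which cancelled largely in the mean (-0.039). The ratio of each array already sets pre-miR-424 RNA against control RNA. With 1 replicate of the comparison, no analysis across replicate pairs was possible. The low signal of BCL2 limits what can be said of it.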
